A study of Sus scrofa with 6 samples.

Results

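The troponin subunits of the pig were measured in LDM (longissimus dorsi muscle) and PMM (psoas major muscle). Their probes were taken as all probes, other than controls, that carry the name of 1 of 8 troponin genes or whose description contains the word troponin. Of the 43603 probes on the array, 5182 were given a gene name, and these names stand for 3513 genes. Of the 43603 probes, 10 met this rule, and 9 of the 10 carried the name of a troponin gene. In the lists below, a gene has a probe where a probe was given its name, and probes without a name were not searched. These 9 probes covered 6 of the 8 genes: TNNI1, TNNI2, TNNI3, TNNT1, TNNT3 and TNNC2. TNNC1 and TNNT2 had no probe by name or description, so no level of either is given. All 10 probes were well above the background on 6 of 6 arrays, and 9 of 9 named probes entered the test.

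The animals were 3 female Landrace pigs at 210 days of age, fed alike, fasted before slaughter and given no other treatment. PMM, described in the study as an oxidative muscle, was compared with LDM, described as a glycolytic one, with 3 one-colour arrays for each. The study took both muscles from each pig, whereas no label ties a replicate number to an animal. The wording of the labels on RNA extraction refers to adipose tissue, and the samples were taken as muscle.

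Troponin is the calcium switch of the thin filament of striated muscle, and it is built from 3 subunits. Troponin C binds calcium, troponin I holds actin and myosin apart when calcium is low, and troponin T fastens the complex to tropomyosin. Each subunit has forms that are typical of slow fibres, fast fibres or the heart, so that the set of forms made by a skeletal muscle follows the mix of its fibres. TNNI1 and TNNT1 encode the slow skeletal forms of troponin I and T. TNNI2, TNNT3 and TNNC2 encode the fast skeletal forms. TNNI3 encodes the cardiac form of troponin I and TNNT2 that of troponin T, whereas TNNC1 serves both slow fibres and the heart.

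The forms of a subunit are related in sequence, and the probes show how far they differ. The 6 probes below, all 60 bases long and written 5′ to 3′ as in the array files, form the 3 pairs of different forms that matched best when laid over each other without gaps, at 67.2% to 74.6% of the overlaid bases. The other 33 pairs of named probes matched at 53.2% or less. Capitals mark the bases that differ from the partner within the overlay. The probe of fast troponin I was overlaid with a probe of the cardiac form over 59 bases, of which 44 matched and 15 differed.
TNNI2, probe A_72_P303159: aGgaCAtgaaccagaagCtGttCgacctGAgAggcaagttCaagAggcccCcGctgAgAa
TNNI3, probe A_72_P402633: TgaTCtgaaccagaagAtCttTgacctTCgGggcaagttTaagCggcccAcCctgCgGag
The probe of slow troponin I was overlaid with another probe of the cardiac form over 43 bases, of which 29 matched and 14 differed.
TNNI1, probe A_72_P077691: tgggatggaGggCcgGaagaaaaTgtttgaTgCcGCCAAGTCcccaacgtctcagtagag
TNNI3, probe A_72_P161906: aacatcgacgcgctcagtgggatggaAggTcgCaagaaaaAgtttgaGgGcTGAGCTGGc
The slow and the fast probe of troponin T were overlaid over 58 bases, of which 39 matched and 19 differed.
TNNT1, probe A_72_P232362: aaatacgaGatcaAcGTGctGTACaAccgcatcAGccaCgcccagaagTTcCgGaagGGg
TNNT3, probe A_72_P015556: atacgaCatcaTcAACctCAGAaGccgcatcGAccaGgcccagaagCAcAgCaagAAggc
Across all 36 pairs of the named probes, the longest run of bases that a pair shared at any offset was 11. The differing bases were spread along the overlays of fast with cardiac troponin I and of slow with fast troponin T. In the overlay of slow with cardiac troponin I the matching bases lay mostly in its first part. How much RNA of a related form binds to a probe was not measured.

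TNNI3 had 4 probes, which read different stretches of the same transcript or of its variants. Besides the pair shown above, probe A_72_P389083 is given here. It was the dimmest of the 4, and its difference between the muscles was of like size on the scale used below.
TNNI3, probe A_72_P389083: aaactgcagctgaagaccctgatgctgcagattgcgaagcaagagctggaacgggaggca
Over the 6 pairs of TNNI3 probes, the longest shared run was 9 bases, so that none of the 4 is a copy of another. Fast troponin C had a single probe, which is shown because its values were the closest to equal in the muscles.
TNNC2, probe A_72_P165811: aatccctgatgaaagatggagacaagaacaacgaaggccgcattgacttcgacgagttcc
The GC content was 55% in 8 probes and 48.3% in the TNNC2 probe. The array files give no genome position for these probes, and none was derived here. In the RefSeq gene table of the Sscrofa11.1 assembly, troponin genes lie as neighbours in pairs of a troponin I and a troponin T gene. No gene is listed between TNNT1 and TNNI3, 1 gene between TNNT2 and TNNI1, and 2 genes between TNNI2 and TNNT3. Both neighbours were measured for TNNT1 with TNNI3 and for TNNI2 with TNNT3.

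All levels below are log2 signals above the 75th percentile of the same array, a scale on which 0 is the 75th percentile and 1 unit is a factor of 2. Differences are PMM minus LDM, and adjusted p-values come from limma over 25835 probes, two-sided. Unless a block is named, standard errors and confidence intervals come from the fit without replicate number as a block. Values of different probes are not levels of different genes, because probes bind their targets with different strength. The p-values of limma set a difference against the spread between these arrays, and the estimate of that spread is shared over all probes or genes tested. In bulk RNA from muscle, fewer fibres of a type and less RNA per fibre cannot be told apart.

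TNNI1 and TNNI3 were higher in PMM than in LDM on every array, TNNT1 and TNNT3 were higher in PMM in every pair but overlapped between the muscles, and TNNI2 and TNNC2 did not differ in a common direction. The difference was 1.03 for TNNI1, between 1.79 and 1.85 for the 4 probes of TNNI3, and between -0.09 and 0.40 for the others. Without replicate number as a block, limma called 0 of the 9 probes at an adjusted p of 0.05, against 8 of 25835 probes (0.031%) on the whole array. At an unadjusted p under 0.05 there were 5 of the 9, namely TNNI1 and the 4 probes of TNNI3, against 2.63% of all probes and 1.64% that were also higher in PMM. The same 5 probes had no overlap between the muscles and were higher in PMM, against 3.07% of the 25725 probes with a value on all 6 arrays. Higher in PMM in all 3 pairs of equal replicate number were 7 of the 9 probes, against 16.4%. The 4 probes of TNNI3 read 1 gene, so these counts stand for fewer genes than probes: 4 of 6 genes were higher in PMM in all 3 pairs, and 2 of 6 had no overlap. The shares of all named genes with these traits were not counted, and the shares of probes do not stand in for them.

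**Figure D1:**
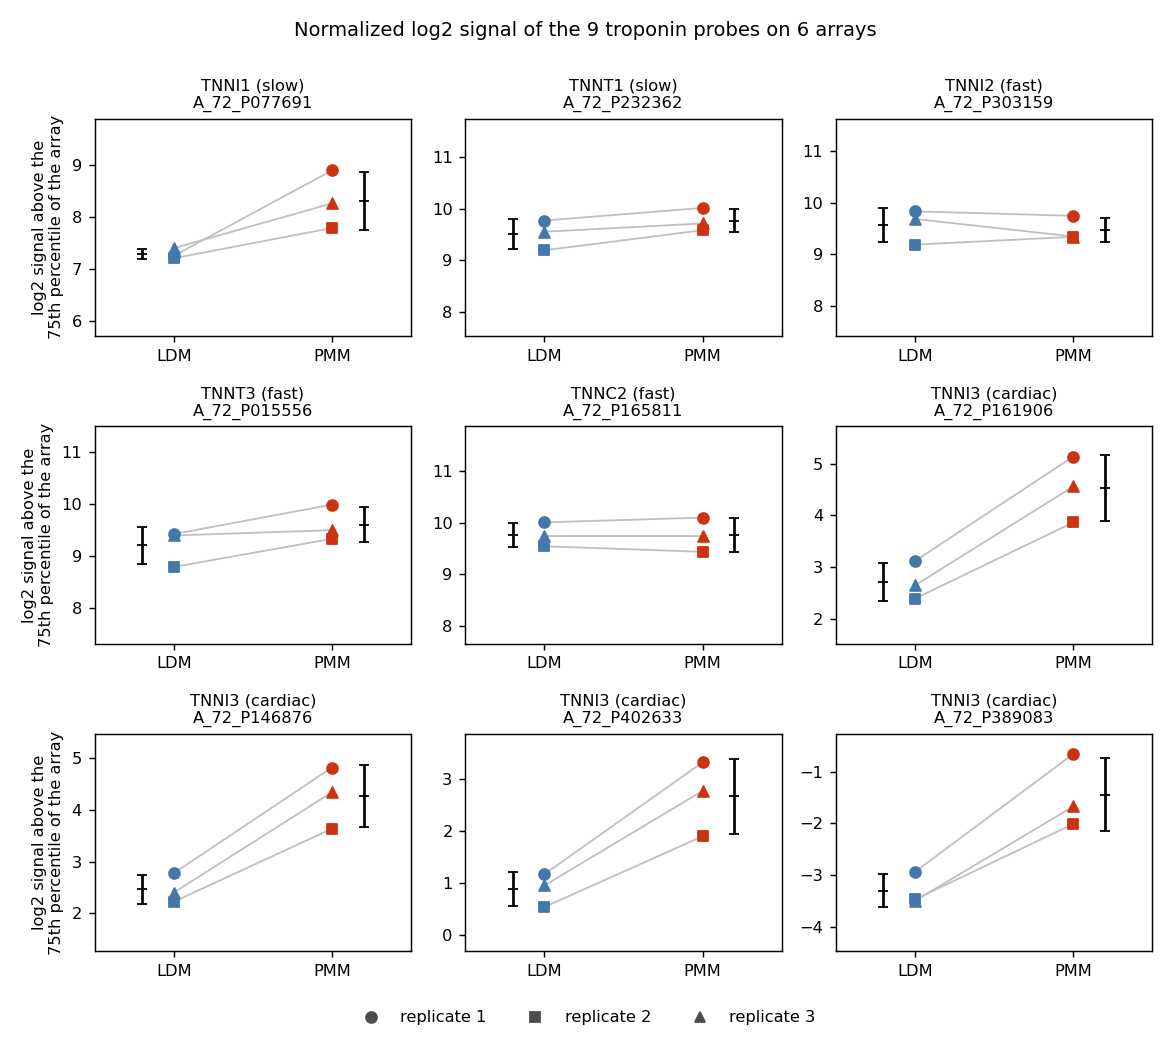
Normalized log2 signal (y axis, above the 75th percentile of the array) of the 9 troponin probes in LDM and PMM. Each point is 1 array, grey lines join arrays of equal replicate number, and bars are the mean and SD of 3 arrays. All panels span the same range of log2 units, and the muscles are separate for TNNI1 and the 4 TNNI3 probes and overlap for the others.

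TNNI1, the slow skeletal form of the inhibitory subunit, stood at 7.25, 7.21 and 7.40 in LDM replicates 1, 2 and 3. In PMM replicates 1, 2 and 3 its log2 signal was 8.90, 7.79 and 8.27. The 3 LDM arrays lay close together, PMM replicate 1 was the highest of all and PMM replicate 2 the nearest to LDM, with a gap of 0.39 between the muscles. The mean was 7.29 ± 0.10 in LDM and 8.32 ± 0.56 in PMM (SD, n = 3), a difference of 1.03 with a standard error of 0.35. This is 2.05-fold, with a 95% confidence interval of the log2 difference from 0.23 to 1.84. Limma gave an unadjusted p of 0.018 and an adjusted p of 0.99998. The exact permutation test of the 6 arrays, two-sided, gave p = 0.1, the smallest that 3 arrays against 3 allow. The differences within pairs were 1.65, 0.58 and 0.87.

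TNNI2, the fast skeletal form of the same subunit, had log2 signals of 9.83, 9.19 and 9.68 in LDM and of 9.74, 9.34 and 9.34 in PMM. The ranges of the muscles overlapped over most of their length, and within pairs PMM was lower in replicates 1 and 3 and higher in replicate 2. The mean was 9.57 ± 0.34 in LDM and 9.48 ± 0.23 in PMM (SD, n = 3). The difference of -0.09 had a standard error of 0.32, and its 95% confidence interval from -0.81 to 0.63 includes changes of either sign. Its sign turned to 0.04 without LDM replicate 1, where 27 of 57 pixels of the spot were saturated.

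TNNI3, the cardiac form, showed the largest difference of the troponins, and on the scale above all its probes gave nearly the same one. Probe A_72_P161906, the brightest, had log2 signals of 3.12, 2.39 and 2.65 in LDM and of 5.14, 3.87 and 4.56 in PMM. Every PMM array was above every LDM array, and in both muscles replicate 1 was the highest and replicate 2 the lowest. The mean was 2.72 ± 0.37 in LDM and 4.52 ± 0.64 in PMM (SD, n = 3), a difference of 1.80 with a standard error of 0.40 (95% confidence interval 0.89 to 2.71). This is 3.48-fold, and within pairs the difference was 2.02, 1.47 and 1.91.

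The second TNNI3 probe, A_72_P146876, read 2.77, 2.22 and 2.40 in LDM and 4.82, 3.64 and 4.34 in PMM, a difference of 1.80 with a standard error of 0.38. The third, A_72_P402633, read 1.17, 0.53 and 0.95 in LDM and 3.33, 1.90 and 2.78 in PMM, a difference of 1.79 with a standard error of 0.41. The fourth, A_72_P389083, read -2.94, -3.47 and -3.50 in LDM and -0.66, -2.01 and -1.67 in PMM, a difference of 1.85 with a standard error of 0.41. Their signals lay far apart, with LDM intensities from 58.3 to 5898 units over the 4 probes, whereas their folds lay between 3.45 and 3.61. The folds were less alike with normexp background correction. There the log2 difference was 1.59 for A_72_P161906 and A_72_P146876, 1.48 for A_72_P402633 and 1.02 for A_72_P389083, the dimmest. None of the 4 overlapped between the muscles. The unadjusted p lay between 0.0012 and 0.0023 and the adjusted p of limma between 0.99 and 0.99998, and the differences within pairs lay between 1.37 and 2.28. A mean at least 2-fold higher in PMM with no overlap, as for TNNI1 and the 4 probes of TNNI3, was found for 0.906% of all probes.

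TNNT1, the slow skeletal form of the subunit that binds tropomyosin, had log2 signals of 9.77, 9.20 and 9.56 in LDM and of 10.02, 9.58 and 9.72 in PMM. Each PMM array was above the LDM array of its number, by 0.24, 0.39 and 0.16, but PMM replicates 2 and 3 were below LDM replicate 1. The mean was 9.51 ± 0.29 in LDM and 9.77 ± 0.22 in PMM (SD, n = 3). The difference of 0.26, with a standard error of 0.31 without the block, is 1.20-fold and smaller than this error (95% confidence interval -0.44 to 0.97). It was 0.11 without LDM replicate 2 and 0.14 without PMM replicate 1, where 29 of 56 pixels of the spot were saturated.

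TNNT3, its fast skeletal counterpart, had log2 signals of 9.42, 8.78 and 9.39 in LDM and of 9.99, 9.33 and 9.50 in PMM. It too was above the LDM array of its number in every pair, by 0.57, 0.54 and 0.10, and PMM replicate 2 was below LDM replicates 1 and 3. In PMM replicate 1, 38 of 53 pixels of the spot were saturated and can read too low, so that 0.57 is a limit from below. The mean was 9.20 ± 0.36 in LDM and 9.60 ± 0.34 in PMM (SD, n = 3). The difference of 0.40, with a standard error of 0.34 and a 95% confidence interval from -0.36 to 1.17, is 1.32-fold. It was 0.20 without LDM replicate 2 and 0.21 without PMM replicate 1. The estimate for this fast form was larger than that for the slow form TNNT1, and their intervals overlap.

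TNNC2, the calcium-binding subunit of fast fibres, had log2 signals of 10.00, 9.54 and 9.74 in LDM and of 10.10, 9.43 and 9.74 in PMM. The muscles covered the same range, and LDM replicate 3 and PMM replicate 3 were equal to 2 decimals. The mean was 9.76 ± 0.23 in LDM and 9.76 ± 0.33 in PMM (SD, n = 3). The difference of -0.01 had a standard error of 0.32 and a 95% confidence interval from -0.73 to 0.72. A change of up to 0.72 either way in the signal as read thus lies within the error. Pixels of the spot were saturated on 3 arrays: 47 of 54 in LDM replicate 1, 32 of 50 in PMM replicate 1 and 5 of 61 in PMM replicate 2. Such pixels can read too low, so that the interval does not bound the change in RNA. Its sign depended on the scaling, being 0.03 when the 75th percentile was taken over probes detected on each of the 6 arrays only.

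**Figure D2:**
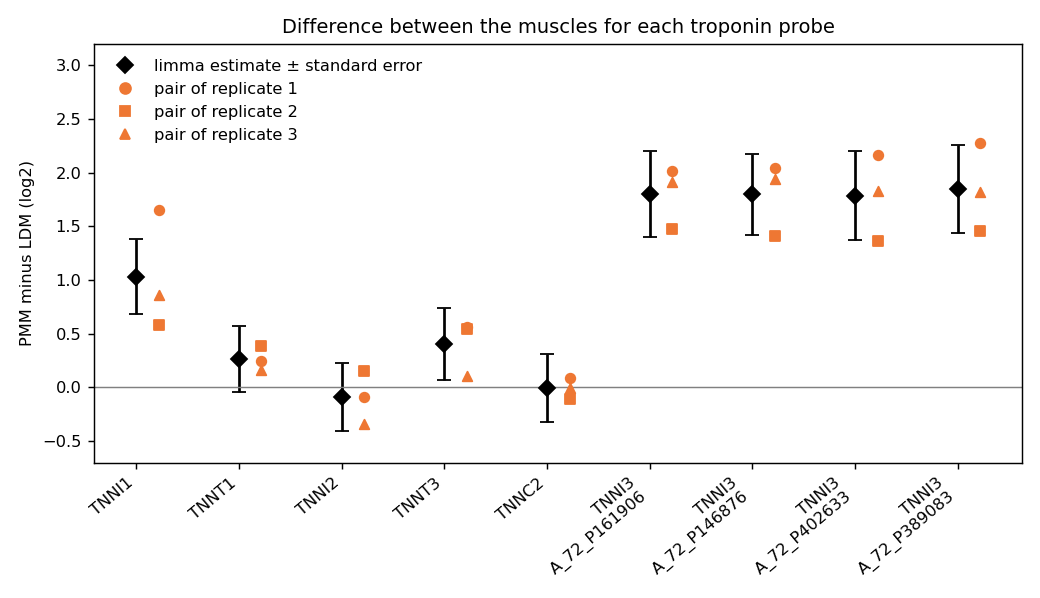
Difference PMM minus LDM (y axis, log2) of each troponin probe. Diamonds with bars are the limma estimate and its standard error over 3 arrays per muscle, and orange symbols are the differences within the pairs of replicates 1, 2 and 3. TNNI1 and all TNNI3 probes lie above 0 in every pair, while TNNI2 and TNNC2 have pairs on either side of 0.

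Arrays of equal replicate number shared a scan day and deviated together from the mean of their muscle, so that the number was also fitted as a block. Over all probes the block called 17 of 25835 (0.0658%) and 0 of the 9 troponin probes. The adjusted p with the block was 0.26 for TNNI1 and 0.11 to 0.12 for the TNNI3 probes. The standard error with the block was 0.25 for TNNI1, 0.19 to 0.21 for the TNNI3 probes, 0.16 for TNNT1 and 0.18 for TNNT3. The differences of TNNT1 and TNNT3 were larger than these errors, with adjusted p of 0.63 and 0.51 with the block. With the slide as a block, which rests on replicates 2 and 3 because the arrays of number 1 lay on separate slides, limma called the 4 TNNI3 probes and 529 of 25835 probes in all (2.05%). When the fit was restricted to the 2884 named genes, each with its brightest probe, the block called 206 genes (7.14%), of which 127 (4.4%) were higher in PMM. TNNI1 and TNNI3 were 2 of these 127, with adjusted p of 0.0076 and 5.2e-05, while without the block limma called 0 of the 2884 genes at adjusted p and 108 (3.74%) at an unadjusted p under 0.05. In this block fit the standard errors of the troponin genes were all 0.19 to 0.22. The SD of their differences within pairs ranged from 0.10 for TNNC2 to 0.55 for TNNI1. Limma shares the estimate of the spread over all genes, so that these p-values do not rest on the 3 pairs of a gene alone. The adjusted p of the other troponin genes with the block was 0.27 for TNNT3, 0.52 for TNNT1, 0.88 for TNNI2 and 0.99 for TNNC2. The calls of TNNI1 and TNNI3 were lost with quantile normalization, where the block called 0 genes and the adjusted p was 0.17 and 0.070. They were also lost without the arrays of replicate number 3 (adjusted p 0.20 and 0.18), and that of TNNI1 without replicate number 1 (0.24). Over all settings the adjusted p ranged from 0.0076 to 0.99998 for TNNI1 and from 2.5e-06 to 0.99998 for the brightest TNNI3 probe. Where the calls were lost, the differences were between 0.72 and 1.12 for TNNI1 and between 1.75 and 1.85 for TNNI3.

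The ratio of a slow to a fast form within an array does not depend on the scaling factor of the array. Its absolute value carries the binding strength of both probes, so that only its difference between the muscles is read. For troponin I, log2 of TNNI1 over TNNI2 was -2.58, -1.98 and -2.28 in LDM and -0.84, -1.55 and -1.08 in PMM. The 3 PMM ratios were above the 3 LDM ratios, by a gap of 0.43. The mean was -2.28 ± 0.30 in LDM and -1.16 ± 0.36 in PMM (SD, n = 3), so that slow over fast troponin I as measured was 2.18-fold higher in PMM, by 1.74, 0.43 and 1.20 within pairs. In LDM replicate 1, 27 of 57 pixels of the TNNI2 spot were saturated and can read too low, so that the value of 1.74 is a limit from below. Without this array the log2 difference was 0.98. The exact permutation test, two-sided, gave p = 0.1, the smallest possible, and exact sign flips within the 3 pairs gave p = 0.25, also the smallest possible.

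For troponin T, log2 of TNNT1 over TNNT3 was 0.35, 0.41 and 0.16 in LDM and 0.03, 0.26 and 0.22 in PMM. The muscles overlapped, and the ratio was lower in PMM in replicates 1 and 2 and higher in replicate 3. The mean was 0.31 ± 0.13 in LDM and 0.17 ± 0.12 in PMM (SD, n = 3), a difference of -0.14 (exact permutation p = 0.3). In PMM replicate 1, 29 of 56 pixels of the TNNT1 spot and 38 of 53 of the TNNT3 spot were saturated, so that the ratio of 0.03 on this array is open to error in either direction. Without this array the difference was -0.07. Whether the troponin T ratio differed between the muscles in another way than the troponin I ratio was not tested. No such ratio could be formed for troponin C.

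**Figure D3:**
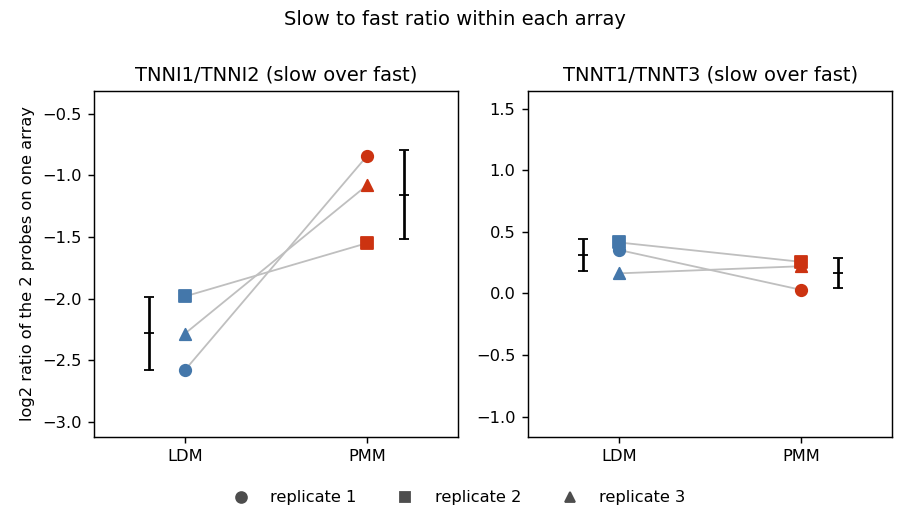
Log2 ratio of the slow to the fast probe on each array (y axis) for troponin I on the left and troponin T on the right, in LDM and PMM. Points are arrays, grey lines join equal replicate numbers, bars are the mean and SD of 3 arrays, and both panels span the same range. The troponin I ratio is higher in PMM by 0.43 to 1.74 in the 3 pairs, and the troponin T ratio differs by -0.32 to 0.06.

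The cardiac form was also set against the skeletal forms of troponin I, a comparison chosen after the values were seen and given with no test. Log2 of TNNI3 over TNNI1 was higher in PMM by 0.77 on average, and by 0.37, 0.89 and 1.04 within pairs. Log2 of TNNI3 over TNNI2 was higher by 1.89, and by 2.11, 1.32 and 2.25 within pairs, of which the first is a limit from below because of the saturated pixels of TNNI2 in LDM replicate 1. Neither ratio overlapped between the muscles.

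The probes of TNNT1, TNNI2, TNNT3 and TNNC2 were among the brightest on the array. Their spots ranked between 1 and 51 of all spots on the 6 arrays, and their raw mean signals were between 65.8% and 99.9% of the saturation value of the scanner. No spot was flagged as saturated, but single pixels were saturated for each of the 4 genes, on 1 array for TNNT3, 1 for TNNI2, 2 for TNNT1 and 3 for TNNC2. At most 47 of 54 pixels of a spot were affected, for TNNC2 in LDM replicate 1. TNNI1 reached 17.7% to 47.8% of the saturation value and the TNNI3 probes at most 3.40%, with no saturated pixel. Over the 100 brightest probes the median absolute difference was 0.098, against 0.197 over all probes tested. The part of brightness in the small differences of these 4 genes was not tested.

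**Figure D4:**
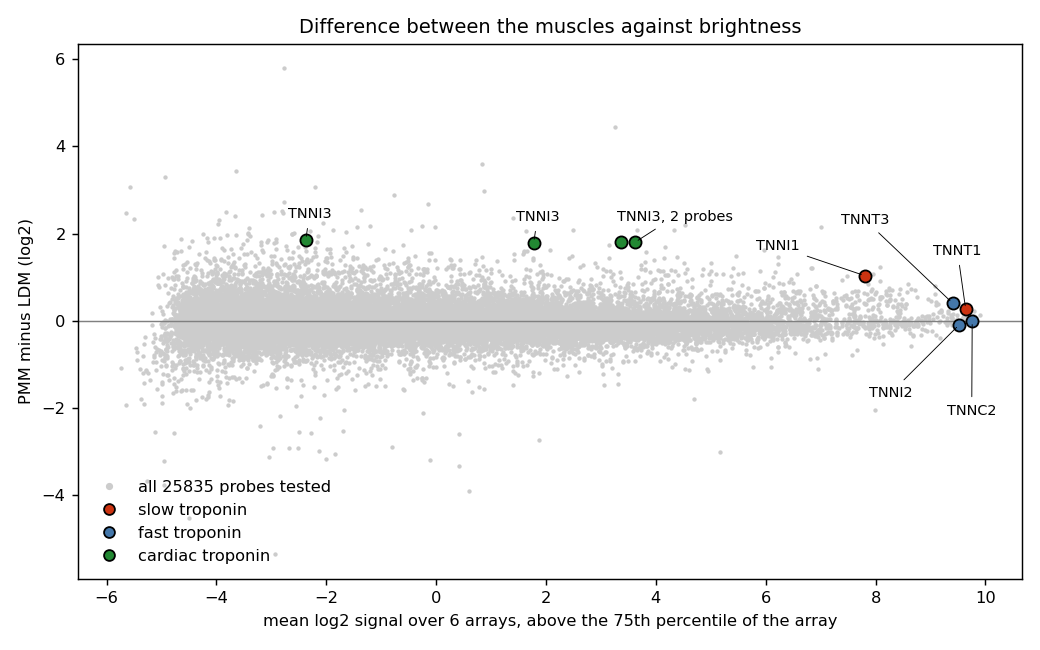
Difference PMM minus LDM (y axis, log2) against the mean log2 signal over 6 arrays (x axis) for all 25835 probes tested in grey, with the slow, fast and cardiac troponin probes coloured. TNNT1, TNNI2, TNNT3 and TNNC2 lie at the right edge, where grey points scatter little around 0, and TNNI1 and the TNNI3 probes lie above the bulk of the points at their brightness.

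The tissue was checked by its markers. CKM, ACTA1, DES, MB and TTN, which mark skeletal muscle fibres, stood well above background on 6 of 6 arrays. No probe was named for MYF6. All 5 were higher on average in PMM (median 0.14). MB, at 1.47, was the only one that limma called with the block over named genes (adjusted p 0.0023). In that fit 4.4% of all named genes were called higher, and the call was lost with quantile normalization. Of the markers of the heart other than TNNI3, the natriuretic peptides NPPA and NPPB were not well above the background on any array. No probe was named for MYH6 or MYL7. RYR2, the calcium release channel of the heart, was also not above the background on any array. TNNI3 was detected, while NPPA, NPPB and RYR2, with 1 probe each, were not. ATP2A2, the calcium pump that slow fibres share with the heart, was well above the background on 6 of 6 arrays.

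Markers of other cell types were compared in the same way, and their part in the troponin values was not tested. The calls named here are those of the block over named genes, all of which were lost with quantile normalization. The summed linear levels of the 5 adipocyte markers, relative to the 75th percentile of the array, were 72.4 to 229 in LDM and 61.6 to 244 in PMM. Such a sum adds probes of different binding strength, so that the brightest probe weighs most. Only 1 of the 5 was higher on average in PMM, against 1385 of 2884 named genes, and the median difference was -0.63. Of the 5 adipocyte markers, PLIN1 and CIDEC were called lower in PMM with the block over named genes (-1.03 and -0.86). The 4 fibroblast markers with a probe summed to 97.6 to 220 in LDM and 71.0 to 152 in PMM, and COL1A1 and COL1A2 were called lower with the block (-0.83 and -0.84). Of the 4, 0 were higher on average in PMM (median -0.64). The 5 endothelial markers summed to 53.8 to 166 in LDM and 93.9 to 162 in PMM, with ENG called higher (0.79). All 5 were higher on average in PMM (median 0.28). The markers of macrophages (2 of 4 with a probe) and smooth muscle (2 of 4) were all higher on average in PMM and gave no call with the block. No probe was named for the listed erythrocyte markers HBB, HBA and ALAS2, so that no level is given for this cell type.

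Among the partners of troponin on the thin filament, 7 of 15 listed genes had a probe, 4 of the 7 were higher on average in PMM, against 1385 of 2884 named genes, and the median difference was 0.04, against -0.01 over all named genes. Limma called 0 of 7 without the block and 1 with it over named genes, where 7.14% of all named genes were called and 4.4% called higher. The called gene was TPM3, the tropomyosin of slow fibres, at 0.93 (adjusted p with the block 0.0096). In the fit of all probes without the block, its standard error was 0.35 and its adjusted p 0.99998. TPM2, another tropomyosin, was at 0.66, with an adjusted p of 0.0501 with the block. CAPZA2, a subunit of the actin capping protein, was at -0.42, and TMOD4, a skeletal tropomodulin that caps the other end of the filament, at -0.24.

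Of 11 genes listed for the sarcomere of slow fibres, 6 had a probe, and all 6 were higher on average in PMM, against 1385 of 2884 named genes, with a median of 0.77. The block over named genes called 3 of them higher, against 4.4% of all named genes: ATP2A2, the calcium pump of slow fibres and heart, at 1.21, MYOZ2, a Z-disc protein, at 1.02, and TPM3. MYL2, the regulatory light chain of slow myosin, was at 0.61 and was not called. TNNI1 lay between TPM3 and ATP2A2 in size, and TNNT1 was below all 6, whose smallest difference was 0.43.

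Of 12 genes listed for the sarcomere of fast fibres, 9 had a probe, 6 of the 9 were higher on average in PMM, again against 1385 of 2884, and the median was 0.05. None of the 9 was called by limma with or without the block. MYH2, the myosin of fast oxidative fibres, was at 0.49, CASQ1, the calcium store protein of fast fibres, at -0.30, PVALB, a soluble calcium buffer, at 0.14 and MYH4, the fastest myosin, at -0.10. The 3 fast troponins, at -0.09, 0.40 and -0.01, lay within the range of this list, which was -0.30 to 0.49. TPM3 is in both the thin filament and the slow list, and TPM1 in both the thin filament and the fast list. Of 9 genes listed for developmental and cardiac sarcomeres, 3 had a probe, and none of these was above the background.

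The likeness of patterns was measured as the root mean square difference of log2 signals over the 6 arrays, after each gene was centred on its own mean, and 0 is an identical pattern. Among the troponins the 4 TNNI3 probes were alike, at 0.060 to 0.218. TNNT1 was near TNNT3 (0.125) and TNNI2 near TNNC2 (0.135). TNNI1 was at 0.42 to 0.47 from the TNNI3 probes, at 0.46 from TNNT1 and at 0.62 from TNNI2. The pattern of the bright slow form TNNT1 was thus closer to bright fast forms than to the slow form TNNI1, on values that share arrays and, except for TNNI1, brightness near the saturation value.

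Over 2757 named genes that are no troponins, those nearest to TNNI1 were TPM3 (0.18), SLC45A2 (0.21) and DHRS4 (0.21). The nearest to TNNT1 were SLC22A7 (0.025), CLPS (0.084) and LOC733637 (0.098). For TNNI2 they were MYLPF, the light chain of fast myosin, CTBP2 and NCOA1, each at 0.058. For TNNT3 they were PNPLA3 (0.061), JUN (0.088) and GNAS (0.093), and for TNNC2 HPS4 (0.053), PAPOLA (0.068) and GNE (0.072). For TNNI3, added after the values were seen, the nearest were MB, the oxygen store protein of muscle (0.33), BDNF (0.34) and CPT1B, which brings fatty acids into mitochondria of muscle (0.35). A gene that varies little between arrays is near many others by this measure, so that the distances of TNNI3 and TNNI1 are larger than those of the genes with small differences.

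The tenth probe that met the rule, A_72_P041061, is described in the files only as a partial match to a troponin I of an insect and is not named for a pig gene. Its log2 signal was -3.05, -2.83 and -3.71 in LDM and -3.94, -2.67 and -2.60 in PMM. The muscles overlapped and the pairs went either way, with a difference of 0.13 and a standard error of 0.44.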

How the data were processed

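Total RNA of LDM and PMM, labelled with Cy3, was measured on one-colour Agilent arrays, 3 per muscle. The authors deposited linear spot intensities and flags from Agilent Feature Extraction 10.5.1.1, which subtracted background, corrected spatial trends and marked outlier and detected spots; the intensities were not normalized between arrays. The deposited value table of the series held the same intensities within 0.005 units. Well above the background were 58.4% to 72.4% of the spots of an array, the 75th percentile was 595 to 883 units, and no spot was flagged as saturated. Pixels within some troponin spots were saturated, at most 47 of 54 in a spot. The number of arrays limits the precision.

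Control and outlier spots were left out, log2 values of repeated spots were averaged and the 75th percentile of the array was subtracted. Probes well above background on the 3 arrays of LDM or on the 3 of PMM, with at least 2 values per muscle, were tested with limma 3.58.1 in R 4.3.3 (lmFit, eBayes, Benjamini-Hochberg, threshold 0.05), after a test on simulated data. Single values were compared by exact permutation of arrays. Names came from RefSeq accessions for 3055 probes, gene numbers for 1232 and the files for 895. The brightest probe stood for a gene in gene lists and ratios. The genes named are all troponins with all their probes, from each sarcomere list up to 4 genes with the largest absolute difference, and the 3 genes most like each troponin. Cell type markers are named where defining or called. The members and lists were chosen with earlier results of these data known.

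Deviations from the mean of the muscle correlated between arrays of equal replicate number at 0.62, 0.70 and 0.56, and equal numbers were therefore treated as pairs. Equal numbers also shared a scan day, and numbers 2 and 3 a slide. A shared pig and a shared scan day or slide thus cannot be told apart. Alternatives were the replicate and slide blocks, quantile normalization, median centring, another percentile, normexp, no filter, outlier spots kept, named genes by brightest or mean probe, the deposited value table and leaving out arrays.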

Additional observations from a re-analysis of the deposited data

How the results depend on the processing

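With 3 arrays per muscle, the count of calls depended on the setting more than the differences did. Over all probes, 8 were called, 7 with quantile normalization, 9 with median centring and 8 with the deposited value table. The count was 17 with the replicate block, 529 with the slide block and 1 with normexp background correction. It was 0 with a percentile over probes detected on each of the 6 arrays, without the detection filter and with outlier spots kept. The replicate block with quantile normalization also gave 0. Over named genes by brightest or mean probe, without a block, 0 genes were called. The slide block, which rests on replicates 2 and 3 since those of number 1 lie on different slides, called 4 troponin probes, all of TNNI3 (1.60 to 1.69). The replicate block over named genes called 206 genes, 2 of them troponins. With settings chosen after seeing the data, quantile normalization over named genes gave 0 calls with and without this block, and leaving out 1 replicate number from it gave 0 to 131 calls, of which 0 to 2 were troponins. Without single arrays, 0 to 1 probes and no troponin were called. The sign of TNNC2 turned with that percentile (0.027) and ranged from -0.18 to 0.16 without single arrays and to 0.046 in the block without number 2, and that of TNNI2 from -0.28 to 0.040 and to 0.032 in the block without number 3. The cause was not tested. The log2 differences of TNNI1 (0.72 to 1.30) and of the 4 TNNI3 probes (1.02 to 2.17) kept their sign in all settings run, the lowest TNNI3 value being that of the dimmest probe with normexp. Among the troponins, the replicate block changed no call other than those of TNNI1 and TNNI3 over named genes. With normexp the difference was 0.11 for TNNT1 and 0.22 for TNNT3. The ratio TNNI1 over TNNI2 differed by 0.97 to 1.32 without single arrays, and TNNT1 over TNNT3 by -0.21 to -0.07.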
